A study of Rattus norvegicus with 8 samples.

Results

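The limb position genes are transcription factors that mark where along the body, and in which limb, a mesenchymal cell arose. A set of 9 was named for rat fracture callus: Pitx1, Tbx4, Tbx15, Hoxa10, Hoxa11, Hoxc6, Hoxc8, Hoxc9 and Hoxc10. They were chosen by name, with their levels and detection in these libraries already known, so their levels below are a description and carry no test. Of the 9, 7 were listed in at least 1 of the 8 count tables, out of 12282 genes listed in any table, and 6 were listed in every table, out of 10849 such genes. Hoxa10 and Hoxc6 were listed in 0 tables, and Tbx4 in 2. RefSeq also gives Hoxa10 as a synonym of Hoxa11 and Hoxc8 as a synonym of Hoxc9, and whether the annotation behind the counts used these names otherwise was not tested.

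Cells came from the callus, the repair tissue of a broken femur, of Sprague Dawley rats. The control rats were untreated. The other 3 groups carried zoledronate, a bisphosphonate that blocks bone resorption, given under the skin at 0.3 mg/kg each week for 12 weeks before a closed fracture of 1 femur, and were labelled zoledronate alone, zoledronate and CGRP (calcitonin gene-related peptide, a neuropeptide), or zoledronate and Mg (magnesium). Libraries of these last 2 groups go by CGRP and magnesium below. Each group was taken at 4 and at 12 weeks after fracture, and each group and week was 1 library. The labels name a stainless steel and a magnesium-containing nail without saying which group had which, and they give neither the age and number of the rats nor the dose and route of CGRP. Digested cells were kept in a dish for 24 h before sequencing, so cells that attach and survive in culture were measured.

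Pitx1 is switched on in the hindlimb field of the embryo and not in the forelimb field, and it acts there upstream of Tbx4, while Tbx5 is the forelimb counterpart of Tbx4. Hox genes lie in 4 clusters, and their order along each cluster follows the order of their expression along the body and along the limb: genes with low numbers act nearer the head and shoulder, genes with high numbers nearer the tail and the digits. Fibroblasts of adult tissue keep part of this code, and HoxC genes are known from hindlimb and trunk skin as part of it.

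Used here were the 65208 barcodes with at least 5000 unique molecular identifiers (UMIs, each standing for 1 captured transcript), 6809 to 10370 per library, with 139656712 to 159685281 UMIs per library and a median per cell of 12742 (CGRP, week 12) to 20545 (control, week 4). All 9 fibroblastic genes, collagens and Pdgfra among them, were listed in every library and summed to 28626 to 48152 CPM (counts per 1000000 UMIs). Of 6 macrophage markers 2 to 4 were listed per library, at 0.434 to 8.40 CPM in sum, and 0 libraries listed Adgre1 or C1qa. Endothelial markers (2 to 4 of 5 listed) summed to 1.07 to 5.89 CPM, with Cdh5 in 0 libraries. Muscle markers (3 of 6 in each) summed to 29.9 to 175 CPM, mostly Acta1 (29.5 to 174 CPM). Myf5 and Des reached at most 0.533 and 1.55 CPM, and Pax7, Myod1 and Myog were in 0 libraries. Lists for other callus cell types were read as well. Smooth muscle and pericyte markers summed to 9618 to 17724 CPM, with 4 of 5 listed in each library and Rgs5 in 0. Osteoblast markers summed to 269 to 1175 CPM, mostly Spp1 (248 to 1115 CPM), with Sp7, Bglap and Dmp1 at most 0.204 CPM or unlisted. Tenocyte markers summed to 288 to 750.3 CPM, mostly Scx (287 to 745 CPM), with Mkx in 0 libraries. Chondrocyte markers summed to 80.7 to 316 CPM, with Col2a1, Matn3 and Col9a1 at most 0.0762 CPM or unlisted. Osteoclast markers summed to 58.8 to 163 CPM, mostly Ctsk (50.8 to 150.3 CPM), with Dcstamp in 0 libraries. Mmp9 and Oscar reached at most 0.265 CPM. Whether such cells were present was not tested. The libraries are thus rich in fibroblastic and contractile genes, and the part of any of these cells in the results was not tested. Cell barcodes were shared between libraries in 535 of 69087 cases. The CGRP table of week 12 holds 10670 barcodes, more than the 10000 cells stated as loaded per group, so not each barcode called a cell here need be a single loaded cell. Leaving out the shared barcodes kept all 20 member ratios past 1.5-fold and added 1, Hoxc8 in magnesium between the weeks. With 1 library a group there is no replicate, so higher and lower refer to libraries and not to treatments. The 95% intervals given cover counting error only, and cells that share a library are not independent replicates of it.

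Pitx1, the hindlimb factor, was found in all 8 libraries and stood far apart in 1 of them. It was at 38.7 CPM at week 4 and 44.0 CPM at week 12 in control, and at 22.9 and 22.0 CPM in zoledronate. The CGRP libraries held 52.3 and 21.7 CPM, and the magnesium libraries 30.3 and 1.18 CPM, at the same weeks. The other 7 libraries thus lay between 21.7 and 52.3 CPM, a range of 2.41-fold, and magnesium at week 12 lay below them all, which widened the range to 44.2-fold. In ascending order from that library came CGRP week 12, zoledronate week 12 and zoledronate week 4, whose neighbouring intervals overlapped, and then magnesium week 4, control week 4, control week 12 and CGRP week 4, none of which overlapped its neighbour.

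The low library rested on 189 UMIs of Pitx1 in 164 of 7999 cells (1.18 CPM, interval 1.02 to 1.36), with at most 4 UMIs in a cell. The difference lay in how many cells held Pitx1 as well as in the sum. After each cell was thinned to 5000 UMIs, so that depth was equal, 0.550% of cells (0.400 to 0.738) had a UMI in magnesium at week 12. The share in the other libraries was 16.2% and 18.8% in control, 9.42% and 9.93% in zoledronate, 22.5% and 9.24% in CGRP at weeks 4 and 12, and 13.0% in magnesium at week 4. Unthinned, the share was 2.05% in magnesium at week 12 and 23.0% to 52.9% elsewhere. No class of cells that should lack Pitx1 was at hand to measure what free RNA alone would give, so whether the 164 cells express it was not tested. In each library the thinned share was close to what the same number of UMIs would give if they fell on cells independently, such as 22.5% against 23.5% in CGRP at week 4 and 0.550% against 0.561% in magnesium at week 12. At this depth a low level in every cell and a higher level in a part of the cells cannot be told apart well.

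**Figure D1:**
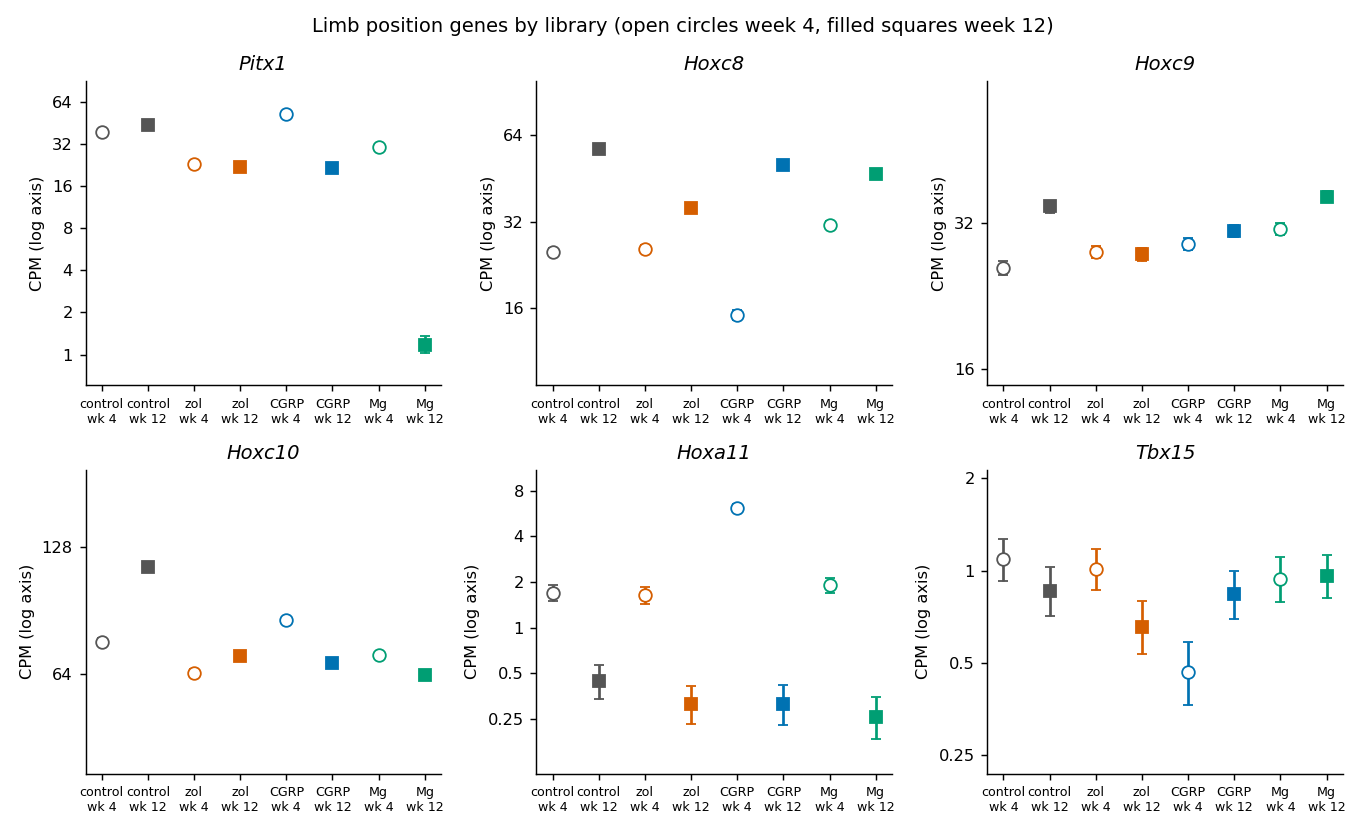
CPM of the 6 members listed in every library, by treatment and week, on log axes that differ between panels. Points are single libraries and bars are exact Poisson 95% intervals, which cover counting error only. Pitx1 is lowest in magnesium at week 12, Hoxa11 is lower at week 12 than at week 4 in each treatment, and Hoxc9 is nearly level.

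Set against zoledronate, Pitx1 in magnesium at week 12 was 18.6-fold lower (log2 -4.22, interval -4.44 to -4.01), and set against magnesium at week 4 it was 25.6-fold lower (log2 -4.68). At week 4 the magnesium library was 1.32 times the zoledronate library. CGRP was 2.28 times zoledronate at week 4 (2.19 to 2.37) and 0.988 times at week 12 (0.941 to 1.04), so the CGRP library of week 12 was at 0.415 times that of week 4. Zoledronate was below control at both weeks, at 0.593 times (0.569 to 0.619) at week 4 and 0.50 times (0.479 to 0.521) at week 12. Between the weeks Pitx1 moved little in control (1.14 times) and in zoledronate (0.959 times). The zoledronate library is the reference of both the CGRP and the magnesium ratio at its week, so these share 1 library.

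Barcodes with fewer than 5000 UMIs, which the rule leaves out, numbered 4416 in all, 2.40% to 11.7% of a library. In them Pitx1 was at 18.7 to 53.3 CPM in 7 libraries. In magnesium at week 12 they held 0 Pitx1 UMIs of 492619, which allows up to 7.49 CPM by the upper Poisson bound.

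Tbx4, the T-box factor downstream of Pitx1 in the hindlimb, was listed in control at week 12 (38 UMIs, 0.272 CPM) and in CGRP at week 12 (23 UMIs, 0.156 CPM). The intervals of these values, 0.193 to 0.373 and 0.0991 to 0.235, overlapped, and no cell held more than 1 UMI. A gene appears in a table only where at least 5 cells have it, so a library without Tbx4 can still have had a few UMIs, and no fold was taken. The forelimb factor Tbx5, no member, was listed in the 4 libraries of week 12 only, with 5 UMIs in control, 5 in zoledronate, 17 in CGRP (0.116 CPM) and 31 in magnesium (0.194 CPM, 0.132 to 0.276). Isl1, which acts before Pitx1 in the hindlimb field, was listed in CGRP at week 4 alone, at 0.197 CPM. At such levels these genes say little about any one library.

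Tbx15, a T-box factor of limb and trunk mesenchyme with a role in skeletal growth, was low in every library. It was at 1.09 and 0.859 CPM in control, 1.01 and 0.654 in zoledronate, 0.464 and 0.836 in CGRP, and 0.940 and 0.958 in magnesium, at weeks 4 and 12. From the lowest library, CGRP at week 4 with 73 UMIs, to the highest, control at week 4 with 161, each library overlapped the next. CGRP at week 4 was at 0.457 times zoledronate (0.342 to 0.607), and CGRP at week 12 was 1.80 times CGRP at week 4 (1.34 to 2.44). The zoledronate library of week 12 was at 0.645 times that of week 4 (0.498 to 0.832), a value that fell short of 1.5-fold under TMM and DESeq2 scaling. With a pseudocount of 1 CPM, close to the level of Tbx15 itself, all 3 of these ratios fell short of it, at log2 -0.46, 0.33 and -0.28.

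Hoxa11, a gene of the middle limb segment, was lower at week 12 than at week 4 in 4 of 4 treatments. The week 4 libraries held 1.70 CPM in control, 1.64 in zoledronate, 6.13 in CGRP and 1.91 in magnesium. The week 12 libraries held 0.444, 0.314, 0.313 and 0.257 CPM in the same order, from 62, 49, 46 and 41 UMIs. The weeks did not overlap: the lowest week 4 library was above the highest week 12 library beyond both intervals. Within week 12 each library overlapped the next, and so did zoledronate, control and magnesium at week 4, while CGRP at week 4 stood above all others.

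As a ratio of week 12 to week 4, Hoxa11 was at 0.261 times in control (interval 0.194 to 0.346) and 0.192 times in zoledronate (0.138 to 0.261), with CGRP at 0.0510 times (0.0371 to 0.0686) and magnesium at 0.135 times (0.0946 to 0.187). The week 12 values rest on few counts, and after thinning to 5000 UMIs the log2 ratio went from -1.94 to -1.29 in control and from -2.89 to -3.48 in magnesium. CGRP at week 4 was 3.74 times zoledronate (3.25 to 4.30), with a UMI in 2.91% of thinned cells against 0.836%. Week and library preparation cannot be told apart, since each library was made at 1 week.

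Hoxa11 has an antisense partner, Hoxa11-as, whose start lies close to that of Hoxa11 on the other strand. Its levels were 0.688 and 0.437 CPM in control, 0.612 and 0.308 in zoledronate, 1.28 and 0.292 in CGRP, and 0.827 and 0.244 in magnesium at weeks 4 and 12. Like Hoxa11 it was highest in CGRP at week 4 and lowest in magnesium at week 12, and it was lower at week 12 in 4 of 4 treatments (0.634, 0.503, 0.229 and 0.295 times). Strand use in counting was not given in the sources used here: where the transcripts overlap the reads of the pair may not be told apart. The stretch between the starts of the pair is shown because both genes read outward from it. It spans 226 bases at chr4:82676802-82677027 of the rat build GRCr8, minus strand, as RefSeq gives it, and the count tables use another build, Rnor_6.0. It is printed 5′ to 3′ in the direction of Hoxa11, whose start follows its last base, and no letter is in capitals because it holds 0 matches on either strand to 3 motifs searched.

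Hoxa11-as to Hoxa11: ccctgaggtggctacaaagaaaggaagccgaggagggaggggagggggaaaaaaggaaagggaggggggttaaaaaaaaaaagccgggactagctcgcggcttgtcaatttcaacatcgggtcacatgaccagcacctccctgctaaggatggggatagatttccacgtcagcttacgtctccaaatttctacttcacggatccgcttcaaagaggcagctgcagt

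The motifs were TAATCC, the core bound by Pitx factors, TTTAT, bound by posterior Hox proteins, and TAAT, the general homeodomain core, whose letters also lie within TAATCC. In the same place relative to 33469 rat gene starts, 5.64%, 36.2% and 53.5% of windows held them on either strand. The stretch has a GC content of 52.2%. A lack of these letters describes this window alone.

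Among the HoxC members, Hoxc8 was the lowest-numbered gene listed and varied most. It was at 25.1 and 57.4 CPM in control, 25.7 and 35.8 in zoledronate, 15.1 and 50.2 in CGRP, and 31.2 and 46.8 in magnesium, at weeks 4 and 12. All 4 libraries of week 12 lay above all 4 of week 4, and only control and zoledronate at week 4 overlapped. The ratio of week 12 to week 4 was 2.29 in control (interval 2.20 to 2.38) and 1.39 in zoledronate (1.34 to 1.45), with CGRP at 3.33 (3.18 to 3.49) and magnesium at 1.5 (1.45 to 1.56), the last just under the 1.5-fold line. The low CGRP library of week 4, at 0.587 times zoledronate, carries the largest of these ratios.

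Hoxc9, the next gene of the cluster, was the most even member, within 1.40-fold over the 8 libraries. It was at 25.8 and 34.6 CPM in control, 27.9 and 27.6 in zoledronate, 28.9 and 30.8 in CGRP, and 31.1 and 36.2 in magnesium. Of its 10 ratios 0 passed 1.5-fold, and the largest was control between the weeks, 1.34 times (1.28 to 1.40).

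Hoxc10, which in the limb is a hindlimb gene, was at 76.3 and 115 CPM in control, 64.4 and 70.6 in zoledronate, 85.9 and 67.8 in CGRP, and 70.9 and 63.7 in magnesium. Control at week 12 was the highest library, and without it the range was 1.35-fold. Zoledronate at week 12 was at 0.616 times that control (0.601 to 0.631), and control itself was 1.5 times higher at week 12 than at week 4, at the edge of the 1.5-fold line. The magnesium library of week 12, which held so little Pitx1, was at 0.902 times zoledronate for Hoxc10 (0.878 to 0.926), with a UMI in 25.6% of thinned cells. Cells with a UMI of Hoxc8, Hoxc9 or Hoxc10 made up 78.9% to 92.1% of a library unthinned and 43.2% to 59.7% thinned, and in magnesium at week 12 these shares were 88.2% and 50.1%.

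Counted by size, 20 of 60 member ratios were past 1.5-fold, and the count ran from 0 to 4 of 6 members per comparison. For zoledronate against control, 1 of 6 members was past 1.5-fold at week 4 (Pitx1, lower), where 4.0% of 10388 compared genes were past it upward and 3.04% downward, 7.05% in all. At week 12 it was 3 of 6 (Pitx1, Hoxc8 and Hoxc10, all lower), where 8.91% of all genes were past it upward and 17.7% downward, 26.7% in all. The median member log2 ratio at week 12 was -0.59 against -0.13 over all genes, and TMM and DESeq2 scaling, which move all genes by 0.13, left 1 of the 3, Pitx1.

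For CGRP against zoledronate, 4 of 6 members were past 1.5-fold at week 4, with Pitx1 and Hoxa11 higher and Tbx15 and Hoxc8 lower, beside 7.13% of all genes upward and 10.7% downward, 17.8% in all. At week 12 it was 0 of 6, beside 11.8% and 8.23%, 20.0% in all. For magnesium against zoledronate it was 0 of 6 at week 4, beside 1.97% and 2.48%, 4.45% in all, and 1 of 6 at week 12 (Pitx1), beside 13.9% and 8.06%, 21.9% in all. All 4 of these comparisons share the zoledronate libraries with those against control.

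Between the weeks, 3 of 6 members were past 1.5-fold in control (Hoxc8 and Hoxc10 higher, Hoxa11 lower), beside 12.6% of all genes upward and 8.74% downward, 21.3% in all. In zoledronate it was 2 of 6 (Tbx15 and Hoxa11, lower), beside 5.83% and 11.5%, 17.3% in all. In CGRP it was 4 of 6 (Tbx15 and Hoxc8 higher, Pitx1 and Hoxa11 lower), beside 12.2% and 11.2%, 23.4% in all, and in magnesium 2 of 6 (Pitx1 and Hoxa11, lower), beside 10% and 9.07%, 19.1% in all. With 6 members, 1 more or fewer changes such a share by much, and no count is read as particular to these genes.

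The order of the HoxC genes on the chromosome was set beside these ratios, a view chosen after their values were seen. Hoxc4, Hoxc5 and Hoxc11, which are no members, were listed in every library and flank Hoxc8 to Hoxc10. In CGRP against zoledronate at week 4 the ratios from Hoxc4 to Hoxc11 were 0.866, 0.772, 0.587, 1.04, 1.33 and 3.29. In CGRP between the weeks they were 1.45, 1.86, 3.33, 1.06, 0.789 and 0.172. From Hoxc8 to Hoxc11 the ratio thus rose with position in the first case and fell in the second, and the CGRP library of week 4 is part of both.

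In magnesium between the weeks the ratios from Hoxc4 to Hoxc11 were 1.40, 1.29, 1.5, 1.16, 0.897 and 0.187, and in magnesium against zoledronate at week 12 they were 1.63, 1.06, 1.31, 1.31, 0.902 and 0.293. In zoledronate against control at week 12 all 6 were below 1, between 0.549 and 0.798, with no trend along the cluster. Hoxc11, the most tail-ward gene of the 6, was at 11.4 and 9.44 CPM in control, 7.49 and 5.18 in zoledronate, 24.6 and 4.23 in CGRP, and 8.11 and 1.52 in magnesium. Hoxc11 was thus highest in CGRP at week 4 and lowest in magnesium at week 12, the same libraries as for Pitx1 and Hoxa11, with a range of 16.3-fold.

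**Figure D2:**
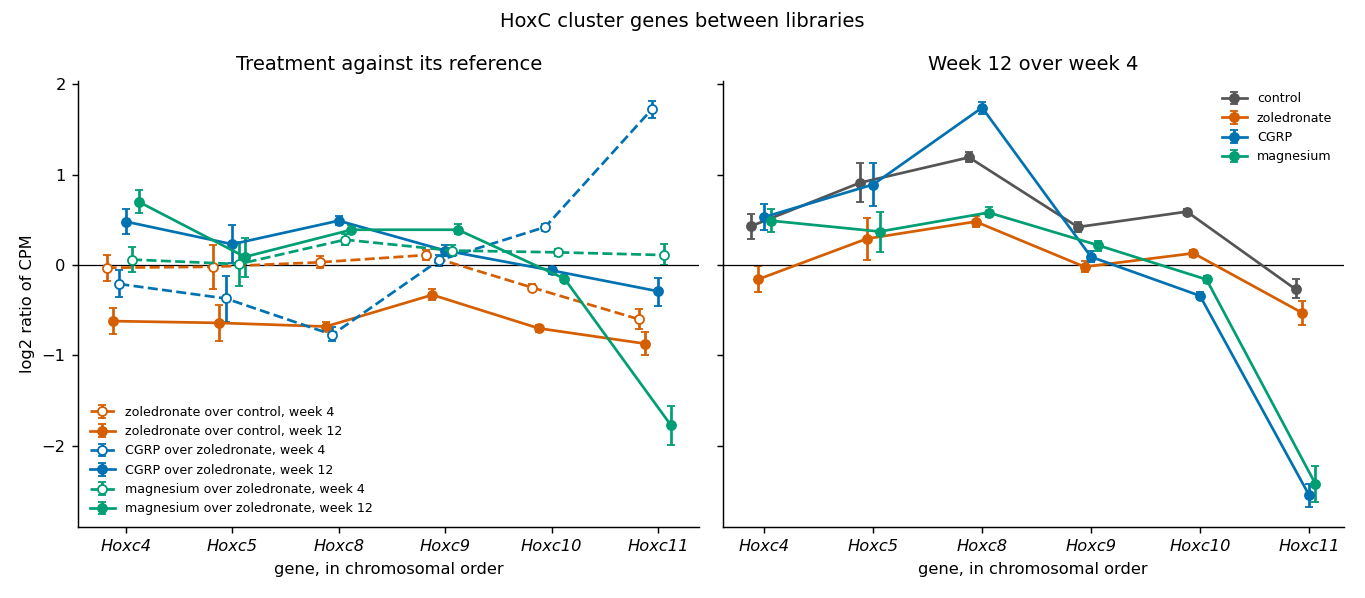
Log2 ratio of CPM for 6 HoxC genes in chromosomal order, for each treatment against its reference (left) and for week 12 over week 4 (right). Bars are exact conditional 95% intervals for counting error. The ratios of Hoxc11 spread furthest, from 3.29 times in CGRP at week 4 to 0.172 times in CGRP between the weeks, and those of Hoxc9 least.

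Of 39 rat Hox genes in the RefSeq table, 25 were listed in any library and 18 in all. Across them the libraries did not move as a block. Hoxd9, which is posterior too, was at 13.8 and 4.79 CPM in control, 14.8 and 12.2 in zoledronate, 5.78 and 4.04 in CGRP, and 14.8 and 5.17 in magnesium. In CGRP at week 4, where Hoxa11 and Hoxc11 were highest, Hoxd9 was at 0.391 times zoledronate. Of the 18 Hox genes compared there, 3 were past 1.5-fold higher and 7 lower, beside 7.13% and 10.7% of all genes. Of 17 compared in zoledronate against control at week 12, 3 were higher and 6 lower, beside 8.91% and 17.7% of all genes, and all 5 of the HoxC genes other than Hoxc9 were among the lower.

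**Figure D3:**
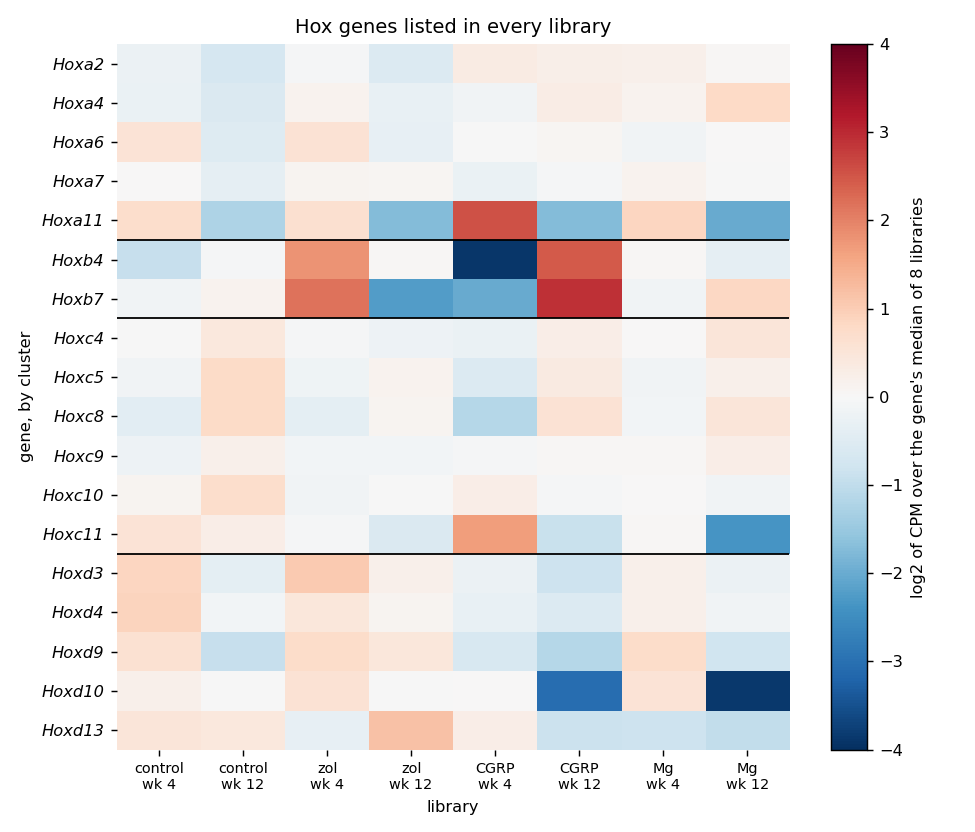
Log2 of CPM over each gene's median of the 8 libraries, for the 18 Hox genes listed in every library, grouped by cluster with black lines between clusters. Rows are genes, columns are libraries, and red is above and blue below the gene's own median. Hoxa11 and Hoxc11 are red in CGRP at week 4 and blue in magnesium at week 12, while Hoxc9 stays pale.

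Other limb genes were read from lists of limb mesenchyme factors, Hox cofactors, chromatin regulators and retinoic acid genes. Prrx1, an early limb bud mesenchyme factor, was at 40.1 to 87.5 CPM, Prrx2 at 398 to 642, Shox2 at 24.3 to 30.9, Twist1 at 60.0 to 76.0 and Tbx18 at 15.1 to 24.7. In magnesium at week 12, the library low in Pitx1, Prrx1 stood at 69.2, Shox2 at 30.4 and Twist1 at 75.2 CPM, all within the range of the other libraries, while Prrx2 at 642 CPM lay above their 398 to 604. Twist2, at 3.66 to 10.6 CPM in the other libraries, was at 18.6 there. In magnesium against zoledronate at week 12, 7 of 16 limb mesenchyme factors were past 1.5-fold higher and 1 lower, beside 13.9% and 8.06% of all genes (median log2 0.40 against 0.09). In CGRP against zoledronate at week 12 it was 7 and 0, beside 11.8% and 8.23% (0.24 against 0.02). The 7 higher genes were the same in both: Prrx1, Tbx2, Tbx3, Msx2, Twist2, Irx3 and Gli3. Both comparisons share the zoledronate library of week 12. That library was the lowest of all for Prrx1 (40.1 CPM), Tbx3, Irx3 and Gli3, so the 2 counts are not separate observations.

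Meis1 encodes a partner with which Hox proteins bind DNA. Meis1 was at 26.2 and 43.1 CPM in control, 26.3 and 19.5 in zoledronate, 43.2 and 17.2 in CGRP, and 22.7 and 15.7 in magnesium. Pbx2 was even, at 17.0 to 20.8 CPM, and Meis2 and Meis3 reached 13.0 and 13.2 CPM. Of the Polycomb genes, whose complexes keep Hox clusters silent, Ezh2 ranged from 15.5 CPM (zoledronate, week 12) to 80.9 (CGRP, week 4), while Eed, Ring1 and Rnf2 stayed at 23.7 to 30.9, 37.5 to 43.9 and 25.3 to 30.7 CPM. The libraries ranked by Ezh2 in the same order as by their share of dividing cells, given below, which was 3.30% and 32.9% in these 2 libraries. The part of division in the range of Ezh2 was not tested. The list of chromatin regulators also holds Men1, Wdr5 and Kdm6b, which are not Polycomb genes, and 13 of its genes were compared. Of these, 0 to 3 were past 1.5-fold higher and 0 to 4 lower in each comparison. Over all genes 1.97% to 13.9% were higher and 2.48% to 17.7% lower.

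The share of dividing cells differed between the libraries, and Pitx1 was higher in dividing cells. Cells were called dividing when, thinned to 5000 UMIs, they had a UMI of at least 3 of the 6 genes Mki67, Top2a, Cenpf, Ccnb1, Ube2c and Cdk1. Their share was 21.0% and 24.1% in control, 13.0% and 3.30% in zoledronate, 32.9% and 9.37% in CGRP, and 14.8% and 9.51% in magnesium, at weeks 4 and 12. Within a library Pitx1 was higher in dividing than in other cells in 7 of 7 libraries with at least 50 UMIs, by 1.96 to 2.46 times, and each interval lay above 1. In control at week 12, for example, it was at 69.1 CPM in dividing and 35.0 CPM in other cells, and in CGRP at week 4 at 79.7 and 40.7 CPM.

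Hoxc10 was higher in dividing cells in 8 of 8 libraries, by 1.30 to 1.75 times, again with each interval above 1. Hoxc8 was higher in 7 of 8 (0.971 to 1.31 times, 3 intervals above 1), and Hoxc9 in 7 with 1 at 1.0 (up to 1.33 times, 4 intervals above 1). Hoxa11 was higher in 4 of 4 libraries with at least 50 UMIs (1.10 to 1.83 times, 1 interval above 1). The same share over all genes was not set beside these counts or those of the cell classes below. None of them is therefore read as particular to these genes. Cells of a library share its preparation, so the count of libraries and not of cells is what repeats here.

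**Figure D4:**
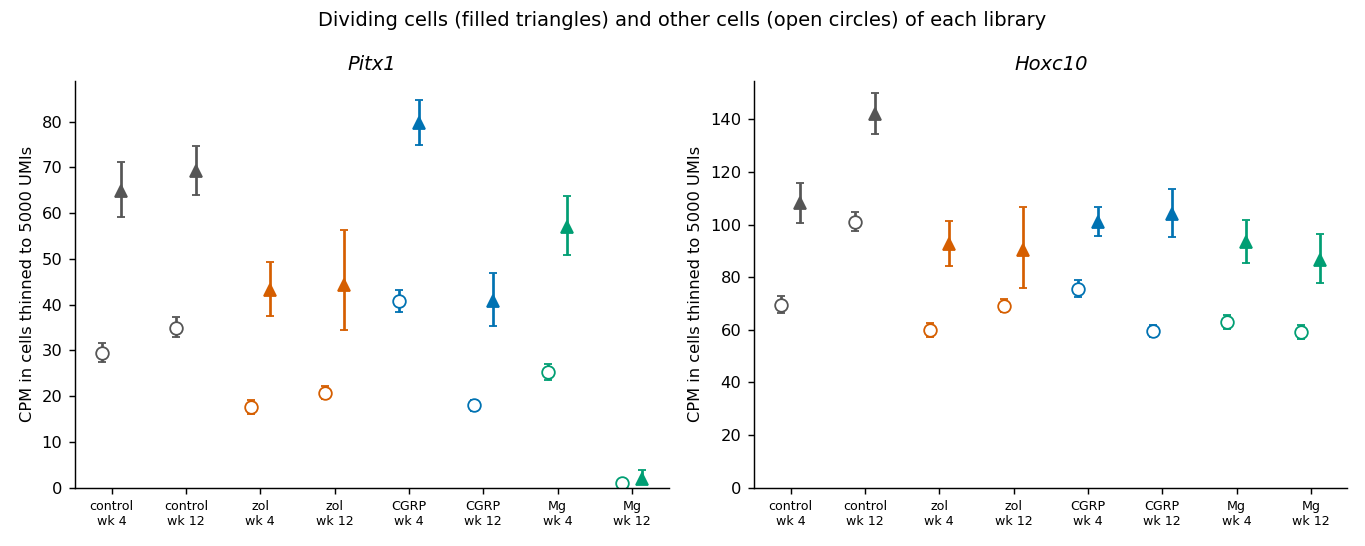
CPM of Pitx1 (left) and Hoxc10 (right) in dividing cells (filled triangles) and in the other cells (open circles) of each library, after thinning each cell to 5000 UMIs. Bars are exact Poisson 95% intervals. Triangles lie above circles in each library for both genes, but for Pitx1 in magnesium at week 12 they rest on 7 and 38 UMIs and their intervals overlap.

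The library differences in Pitx1 that were past 1.5-fold kept their direction within each class. Not dividing cells had Pitx1 at 0.596 times in zoledronate against control at week 12 (0.545 to 0.652), and dividing cells at 0.643 times (0.494 to 0.827), against 0.50 times over all cells. In CGRP against zoledronate at week 4 the ratio was 2.32 in not dividing (2.09 to 2.56) and 1.85 in dividing cells (1.59 to 2.15). In magnesium against zoledronate at week 12 it was 0.0504 in not dividing (0.0354 to 0.0697) and 0.0414 in dividing cells (0.0160 to 0.0900), so the low value was as low in both. Smaller differences did not all keep their direction. Over all cells, unthinned, zoledronate was slightly lower at week 12 than at week 4 (22.0 against 22.9 CPM). In thinned cells this ratio was 1.19 in not dividing (1.07 to 1.32) and 1.03 in dividing cells (0.772 to 1.36).

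Cells with a UMI of the chemokine genes Ccl2 or Ccl7 made up 66.9% of magnesium at week 12, 37.2% of CGRP at week 12 and 2.82% to 22.9% of the other libraries. Pitx1 was lower in these cells than in the rest in 6 of 6 libraries with enough cells and UMIs, at 0.280 to 0.885 times. Of these, 5 had intervals below 1. The lowest, zoledronate at week 4, rests on 10 Pitx1 UMIs in such cells (0.134 to 0.518). The highest, control at week 12, has an interval that spans 1 (0.749 to 1.04). In magnesium at week 12 it was at 0.859 CPM in the cells with Ccl2 or Ccl7 and at 1.66 CPM in those without, both below the 16.4 and 23.2 CPM of the same classes in zoledronate at week 12, all in thinned cells. Hoxc9 was higher in such cells in 6 of 7 libraries (0.816 to 1.18 times), with 1 interval above 1. Its 1 interval below 1 was in magnesium at week 12. Hoxc10 was lower in 6 of 7 (0.897 to 1.01 times), with 2 intervals below 1. The part of these cells in the differences between libraries was not tested beyond these values.

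Cells with Hapln1, a cartilage matrix gene, showed no steady difference in Pitx1, which was higher in 4 and lower in 2 of 6 libraries. Where Alpl or Ibsp, genes of bone-forming cells, had a UMI, Pitx1 was lower in 4 of 6 libraries, 3 with intervals below 1. Hoxc8 was lower there in 6 of 7, also 3 with intervals below 1. With the matrix genes Dcn or Lum, Pitx1 was lower in 6 of 7, with 4 intervals below 1. Hoxc10 was lower in 8 of 8, at 0.815 to 0.981 times, with 3 intervals below 1. Among cells with Il1rl1, Hoxc8 was higher in 7 of 8 libraries (0.956 to 1.6 times), with 4 intervals above 1. In thinned cells the share with Pitx1 was higher among cells with Hoxc10 than without in 7 of 8 libraries, by a median of 1.17 times. With Hoxc8 it was higher in 6 of 8 (median 1.11 times), and with Hoxc9 in 3 of 8 (median 0.994 times). In counts this sparse these shares are given as a description only. Pitx1 and Hoxc10 were both higher in dividing cells, and the part of division in their shared detection was not tested.

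The genes whose levels over the 8 libraries were most like each member were ranked among 5913 or 5914 genes with a mean of at least 10 CPM, by Pearson's r of log2(CPM + 1). For Pitx1 they were Aurkaip1 (r = 0.946), Robo2 (0.943) and Dync1i1 (0.942). All 3 rest on the magnesium library of week 12: without it r was 0.458, 0.367 and 0.675. Dync1i1, a dynein subunit gene, was at 0.395 CPM in that library and at 4.83 to 23.7 CPM in the others. For Tbx15 the nearest were Eif4g3, Xylt2 and Cpd, for Hoxc8 Ano6, Ube4a and Srgn, for Hoxc9 Tmem208, Ap2s1 and Arpc4, and for Hoxc10 Itgb5, Qpctl and Ptrh2, with r from 0.941 to 0.990. With 8 points and so many genes, high values are to be found for any gene, and Hoxa11 was not ranked because some libraries held fewer than 50 of its UMIs.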

How the data were processed

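Single-cell libraries of rat callus cells (10x Chromium V3) were made for 8 groups, 1 library each. The authors deposited 1 table of UMI counts per library, genes by cell barcodes. STAR and the build Rnor_6.0 are named per the submitters' processing notes, while cell calling, filters, annotation and the STAR version were not given in the sources used here. Each gene listed in the deposited count tables was seen in at least 5 barcodes, each barcode had at least 500 genes, and 0 mitochondrial genes were listed, so damaged cells could not be judged by them. The tables hold 69624 barcodes, of which those with at least 5000 UMIs were used. Doublets were not removed, and leaving out the 5% of barcodes with most UMIs is the alternative given.

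CPM is a gene's UMIs summed over a library's barcodes, per 1000000 UMIs. Shares of cells were taken after thinning each cell to 5000 UMIs. Intervals are exact 95% Poisson (CPM), Clopper-Pearson (shares) and conditional binomial (ratios), checked on simulated data, and they cover counting error only. Ratios used no pseudocount and needed at least 50 UMIs in the pair of libraries. With 1 library a group no test was run. A ratio of at least 1.5 either way counts as past, and the same rule over all compared genes gives the background. Cell classes needed at least 200 cells.

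Named are all 9 members, genes of the limb lists with at least 10 CPM in a library (1 is not reported here), and the 3 genes most like each member with at least 50 UMIs in every library. Hoxc4, Hoxc5, Tbx5, Isl1, Hoxa11-as and low-count genes of the text fall outside this rule and were named after their values were seen. The members and lists were chosen with earlier results of these data known. Alternatives were all barcodes, a minimum of 10000 UMIs, thinning, TMM (edgeR 4.0.16) and DESeq2 1.42.0 size factors, a pseudocount of 1, a fold of 2 and, chosen after seeing the data, leaving out barcodes shared between libraries. Gene order, antisense partners and sequence came from RefSeq on GRCr8. Python 3.11.15, scipy 1.17.1 and R 4.3.3 were used.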

Additional observations from a re-analysis of the deposited data

How the results depend on the processing

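No paired analysis was possible because each group is 1 library and carries no replicate number, and for the same reason no library could be left out of a group. The 20 of 60 member ratios past 1.5-fold were recomputed under 8 alternatives, and 0 of them changed sign. Signs turned only for ratios within 0.06 of 0 on the log2 scale. For zoledronate against control, the count of members past the line at week 4 was 0 with a fold of 2, and at week 12 it was 1 under TMM, 1 under DESeq2 size factors and 1 with a fold of 2, Pitx1 in each case. For magnesium against zoledronate at week 12 it was 2 in thinned cells, where Tbx15 joined Pitx1 and 5 members could be compared. For zoledronate between the weeks it was 1 under TMM, 1 under DESeq2 size factors, 1 with a pseudocount of 1 and 1 with a fold of 2, Hoxa11 in each case. The other counts stayed within 1.5 times, though Tbx15 in CGRP against zoledronate at week 4 and in CGRP between the weeks fell short of 1.5-fold with the pseudocount. Hoxc10 in control between the weeks lay on the line and dropped below it with all barcodes, thinning, TMM, DESeq2 and the pseudocount. The largest shifts were 1.85 with the pseudocount (Hoxa11, CGRP between the weeks) and 0.65 with thinning (Hoxa11, control between the weeks), against at most 0.14 elsewhere. A pseudocount pulls the ratios of low genes together. Thinning both leaves fewer UMIs and gives each cell the same weight, and the part of each in its shift was not tested. Depth limits Tbx4, Tbx5 and Isl1, which rest on 38 UMIs or fewer a library, and the absence of replicates limits every comparison.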

Other observations

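Some other position genes stood apart in single libraries. Hoxb4 was at 0.0445 CPM in CGRP at week 4 (7 UMIs) and at 3.58 CPM in CGRP at week 12, and in zoledronate at week 4 it was at 2.28 CPM against 0.344 in control. Hoxb7 was high in the same libraries, at 3.49 CPM in CGRP at week 12 and 2.05 in zoledronate at week 4, and at 0.0962 in zoledronate at week 12 (15 UMIs). Hoxd10 was at 0.718 to 1.09 CPM in 6 libraries and at 0.0884 and 0.0501 CPM in CGRP and magnesium at week 12, from 13 and 8 UMIs. Msx2, a homeobox gene of limb and bone mesenchyme, was at 8.49 CPM in magnesium at week 12 and at 0.810 to 5.50 CPM in the others.

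Retinoic acid carries position signals in the limb bud. Crabp1, which binds it in the cell, reached 18.6 CPM with zoledronate at week 4, against 5.94 CPM in control (3.13 times, 2.90 to 3.38). The other groups, which carried zoledronate too, were at 10.2 CPM (CGRP) and 5.84 CPM (magnesium) at week 4. At week 12 control was at 12.2 CPM, zoledronate at 18.1, CGRP at 15.5 and magnesium at 18.6. In zoledronate against control at week 12, 5 of 8 compared genes of that list were past 1.5-fold higher and 1 lower, beside 8.91% and 17.7% of all genes, with a median log2 ratio of 0.78 against -0.13 over all genes. These values come from 1 library a group.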
